A study of Homo sapiens with 8 samples.

Results

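The 10 genes described here encode enzymes that make, lengthen and desaturate fatty acids: SCD, FASN, ACACA, ACACB, ACLY, ELOVL5, ELOVL6, FADS1, FADS2 and ACSS2. They were chosen by gene symbol, and each had 1 probe set, so that 10 genes of 18417 named genes were followed. Transcript levels came from 8 Affymetrix whole transcript arrays of 2 prostate cancer lines, LNCaP, which is androgen-responsive, and DU145, which grows without androgen; both are established lines. Each line was grown in RPMI medium with 10% serum. Separate dishes received miR-29b or its negative control (nc), or an siRNA directed at TET2 (siTET2), a DNA demethylation enzyme, or its control siRNA (siControl). RNA was taken after 72 h. Each line and construct had 1 array, all cells were transfected, and 1 siRNA construct was labelled for TET2. A difference between 2 arrays therefore has no p-value. No source used here says whether the dishes were grown or the arrays run together. In bulk RNA, fewer cells that express a gene and less RNA per cell cannot be told apart.

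Fatty acids are built in the cytosol from acetyl-CoA. ACLY makes acetyl-CoA from citrate and ACSS2 makes it from acetate. ACACA and ACACB carboxylate it to malonyl-CoA, and FASN joins these units to palmitate. ELOVL6 lengthens saturated chains and SCD places the first double bond in them, whereas FADS1, FADS2 and ELOVL5 desaturate and lengthen polyunsaturated chains. Most of these genes are textbook targets of SREBP-1, the transcription factor encoded by SREBF1, and prostate cancers are known for strong fatty acid synthesis.

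Values are log2 levels as deposited, so a difference of 1 is 2-fold. A level floor was set for counts. The higher of the 2 arrays had to reach its median over named genes. ACACB, the isoform tied to the outer mitochondrial membrane, lay below this floor on all 8 arrays, between 7.03 and 7.35, and is the 1 member left out of counts. The other 9 passed it in every contrast. The array medians over named genes lay between 7.63 and 7.70 in LNCaP and between 7.36 and 7.42 in DU145. Of 7 measured LNCaP markers, 6 or 7 lay above the array median in LNCaP and 2 in DU145. Of 10 measured DU145 markers, 1 lay above it in LNCaP and 9 in DU145. Of 8 adipocyte markers 0 lay above it on any array, and of 11 immune and 10 fibroblast markers at most 2 of a list did. TET2, the targeted gene, was at its lowest with siTET2 in both lines (7.89 against 9.01 with siControl in LNCaP, 6.60 against 7.85 in DU145).

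The miRNA that was transfected is shown with its seed, bases 2 to 8, in capitals. The labels do not name the arm, and the 3p arm, the commonly studied one, is printed from RefSeq (GRCh38.p14), where 2 genes encode the same mature sequence.
hsa-miR-29b-3p: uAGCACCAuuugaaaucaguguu

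The promoters of 3 members are shown because these members differ in how far their levels varied: over the 4 arrays of DU145, SCD ranged over 2.60, ACLY over 0.41 and ELOVL5 over 0.07. Each run is the 250 bases before the RefSeq start site, 5′ to 3′ on the gene's strand, GRCh38.p14. The search covered CCAAT (the NF-Y box), CACGTG (an E-box) and the classical sterol regulatory element, on both strands, and capitals mark the matches.
SCD, chr10:100346983-100347232, plus strand: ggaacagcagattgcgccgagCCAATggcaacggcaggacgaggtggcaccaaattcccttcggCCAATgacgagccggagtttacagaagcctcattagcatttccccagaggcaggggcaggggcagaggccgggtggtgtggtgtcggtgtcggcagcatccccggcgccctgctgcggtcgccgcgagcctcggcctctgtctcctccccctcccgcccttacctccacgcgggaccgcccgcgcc
ACLY, chr17:41918952-41919201, minus strand: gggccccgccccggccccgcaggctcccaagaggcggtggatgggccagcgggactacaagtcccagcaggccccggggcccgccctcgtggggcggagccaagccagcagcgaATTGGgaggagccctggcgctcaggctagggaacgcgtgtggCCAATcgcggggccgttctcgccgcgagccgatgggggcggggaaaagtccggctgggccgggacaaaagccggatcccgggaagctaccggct
ELOVL5, chr6:53348951-53349200, minus strand: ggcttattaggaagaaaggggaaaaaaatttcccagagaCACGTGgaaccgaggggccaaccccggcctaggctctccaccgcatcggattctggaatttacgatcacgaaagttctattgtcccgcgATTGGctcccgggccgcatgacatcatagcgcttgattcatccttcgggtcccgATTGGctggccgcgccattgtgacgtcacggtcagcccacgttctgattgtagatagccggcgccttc
SCD and ELOVL5 each held 2 CCAAT matches, with SCD's starting 229 and 186 bases before the start site. ELOVL5 also held 1 CACGTG, 211 bases before its start site. The window of ACLY that is printed held 2 CCAAT matches. CCAAT was present in 32.0% of 35116 such windows, CACGTG in 6.34% and the sterol regulatory element in 0.0342%. No window of a member held the last, and those of ELOVL6, FADS1 and FADS2 held none of the 3. Of the 10 members, 9 had a window in the table; FASN had none.

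SCD varied most. In LNCaP it was 11.15 with nc, 11.09 with miR-29b, 11.31 with siControl and 10.33 with siTET2. The siTET2 array alone was low there. In DU145 it was 12.01 with nc, 11.69 with miR-29b, 11.08 with siControl and 9.41 with siTET2. All 4 arrays of DU145 differed, and siTET2 was again the lowest. Over the 4 arrays of a line, SCD ranged over 0.98 in LNCaP and over 2.60 in DU145. The LNCaP range was larger than that of 99.3% of genes whose highest array reached the median of the line's values. The difference of siTET2 from siControl was 1.98-fold lower in LNCaP and 3.18-fold lower in DU145. Of 9424 genes above the floor in DU145, SCD had the lowest difference, and in LNCaP it stood at rank 12 of 9416. Against nc, siTET2 was 1.77-fold lower in LNCaP and 6.06-fold lower in DU145.

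**Figure D1:**
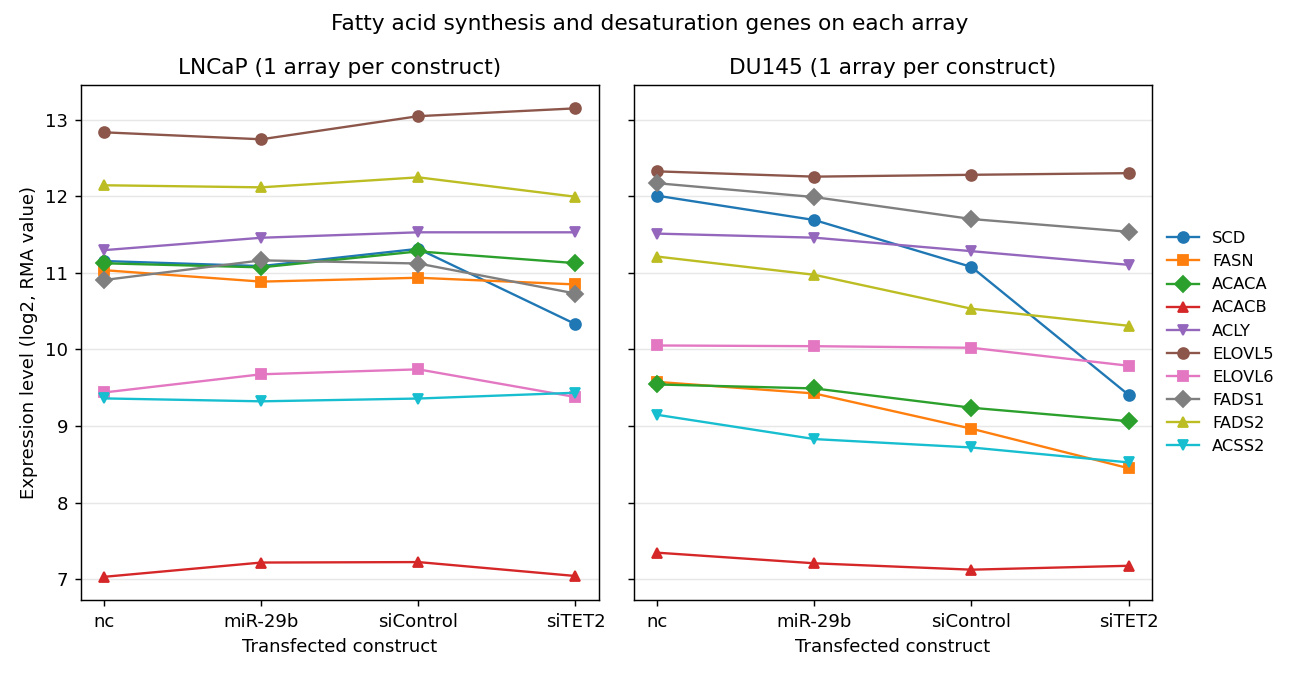
Level of each of the 10 genes (log2, y axis) on each of the 8 arrays, by transfected construct (x axis) in LNCaP and DU145. Each point is 1 array and the lines only join points of a gene; SCD goes from 12.01 with nc to 9.41 with siTET2 in DU145 and is low in LNCaP only with siTET2 (10.33).

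FASN, the synthase itself, differed between arrays of DU145 but little in LNCaP. In DU145 it was 9.58 with nc, 9.42 with miR-29b, 8.96 with siControl and 8.45 with siTET2. In LNCaP it was 11.03, 10.88, 10.93 and 10.85 in the same order. FASN was thus lower on both siRNA arrays of DU145 than on both miRNA arrays, and its whole range over LNCaP was 0.19 against 1.13 in DU145. From siControl to siTET2 it was 1.43-fold lower in DU145 and 1.06-fold lower in LNCaP.

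The enzymes that supply FASN followed the same order in DU145 with smaller steps. ACACA was 9.54 with nc, 9.49 with miR-29b, 9.24 with siControl and 9.06 with siTET2. ACLY was 11.51, 11.46, 11.28 and 11.10 in that order. ACSS2 was 9.15, 8.83, 8.72 and 8.52. Each was highest with nc and lowest with siTET2. In LNCaP the order was another one. ACACA was 11.12 with nc, 11.07 with miR-29b, 11.28 with siControl and 11.13 with siTET2. ACLY was 11.30, 11.46, 11.53 and 11.53, and ACSS2 was 9.36, 9.32, 9.36 and 9.43. There siTET2 was the highest array for ACSS2, and it did not stand apart for ACACA. ACACB was 7.03, 7.22, 7.22 and 7.04 in LNCaP and 7.35, 7.21, 7.12 and 7.18 in DU145, all values below the floor.

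The polyunsaturated desaturases lie next to each other on chromosome 11 and overlap at their starts. FADS2, the delta-6 desaturase, was 11.21 with nc, 10.97 with miR-29b, 10.53 with siControl and 10.31 with siTET2 in DU145. FADS1, the delta-5 desaturase, was 12.17, 11.99, 11.70 and 11.54 there. Both siRNA arrays lay below both miRNA arrays for each gene. In LNCaP, FADS2 was 12.14 with nc, 12.12 with miR-29b, 12.25 with siControl and 11.99 with siTET2, and FADS1 was 10.91, 11.16, 11.12 and 10.73. The siTET2 array was the lowest for both, by less than in SCD.

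The 2 elongases differed little between arrays of DU145. ELOVL6 was 9.44 with nc, 9.67 with miR-29b, 9.74 with siControl and 9.38 with siTET2 in LNCaP, and 10.05, 10.04, 10.02 and 9.79 in DU145. In DU145 its siTET2 array stood apart from the other 3, which lay close together. ELOVL5 was 12.83 with nc, 12.74 with miR-29b, 13.04 with siControl and 13.15 with siTET2 in LNCaP. In DU145 it was 12.32, 12.25, 12.28 and 12.30, a range of 0.07. That was larger than the range of 3.30% of genes whose highest array reached the median of the line's values.

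The comparison of siTET2 with siControl asks what the siRNA against TET2 changed in each line. In LNCaP, 7 of the 9 members above the floor were below 0, with a median of -0.15, against 46.9% of 9416 genes and a median of 0.01. SCD alone was at least 1.5-fold lower (2.37% of genes). FADS1 (-0.39), ELOVL6 (-0.36) and FADS2 (-0.25) came next, and ELOVL5 (0.10) and ACSS2 (0.08) were above 0. ACLY, counted as below 0, was at -0.0002. Against nc in place of siControl, 5 of 9 were below 0 in LNCaP, with a median of -0.06 (46.0% of genes). In DU145, siTET2 minus siControl was below 0 in 8 of 9, with a median of -0.20, against 52.7% of 9424 genes and a median of -0.01. SCD alone was at least 1.5-fold lower (1.59% of genes), and at least 2-fold lower (0.212%), FASN came next at -0.52, and ELOVL5 was at 0.02. The siTET2 array was the lowest of the 4 in both lines for SCD, FASN, ELOVL6, FADS1 and FADS2, that is 5 of 9 members, as it was for 14.1% of genes.

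**Figure D2:**
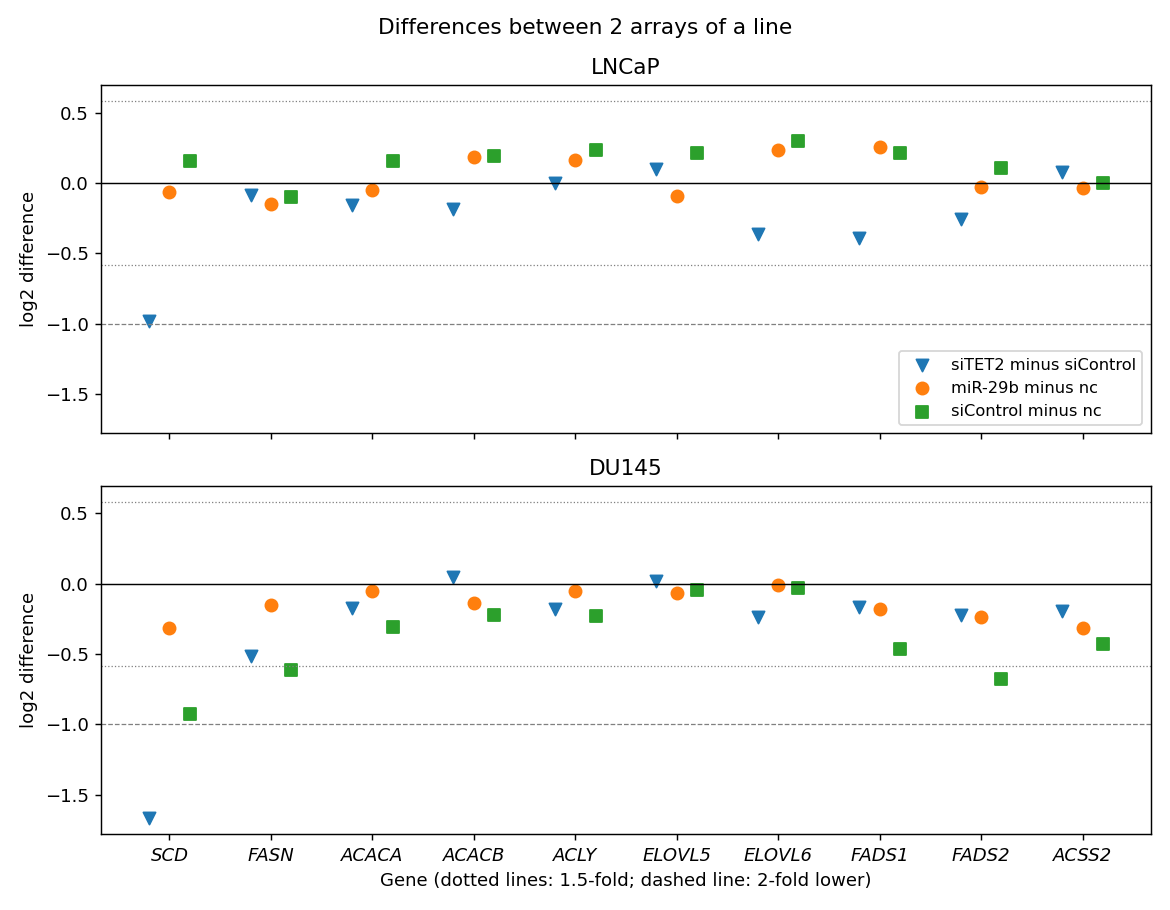
Difference between 2 arrays of a line (log2, y axis) for each gene (x axis), in LNCaP above and DU145 below, for siTET2 minus siControl, miR-29b minus nc and siControl minus nc; each marker is 1 pair of arrays. SCD with siTET2 lies at -0.98 in LNCaP and -1.67 in DU145, and the control pair of DU145 lies below 0 for all 10 genes.

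The control arrays show how far 2 arrays with different control constructs differ, and in DU145 they differed in these genes. With 1 array each, construct, dish and array cannot be told apart. All 9 members above the floor were lower with siControl than with nc, with a median of -0.43, where 57.7% of 9373 genes were and the median was -0.03. SCD (-0.93), FADS2 (-0.68) and FASN (-0.61) were at least 1.5-fold lower, 3 of 9 members against 0.181% of genes. SCD had the lowest difference of all 9373 genes, FADS2 stood at rank 7 and FASN at rank 15. FADS1 (-0.47), ACSS2 (-0.43), ACACA (-0.30) and ACLY (-0.23) followed, whereas ELOVL5 (-0.04) and ELOVL6 (-0.03) were nearly level. In LNCaP the same pair had a median of 0.16, with 2 of 9 below 0 (46.0% of 9531 genes), and 0 of 9 at least 1.5-fold lower (0.514%) or higher (1.79%). Its values ran from -0.10 for FASN to 0.30 for ELOVL6, and SCD was at 0.16.

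Over both steps, siTET2 minus nc in DU145 was at least 1.5-fold lower in SCD (-2.60), FASN (-1.13), FADS2 (-0.90), FADS1 (-0.63) and ACSS2 (-0.62), 5 of 9 members against 2.47% of genes. ACACA was at -0.48 and ACLY at -0.41. This contrast shares its arrays with the 2 contrasts above and is not a separate result. In LNCaP it was at least 1.5-fold lower only in SCD (-0.82; 0.506% of genes), with ELOVL5 at 0.31 and ACLY at 0.23. In DU145, 8 of 9 members had both siRNA arrays below both miRNA arrays, a pattern of 26.3% of genes, and the same 8 were in the full order nc, miR-29b, siControl, siTET2 from high to low, a pattern of 13.7%. ELOVL5 was the exception. In LNCaP 0 of 9 had either pattern (20.9% and 4.22%). These patterns were described after the values had been seen.

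**Figure D3:**
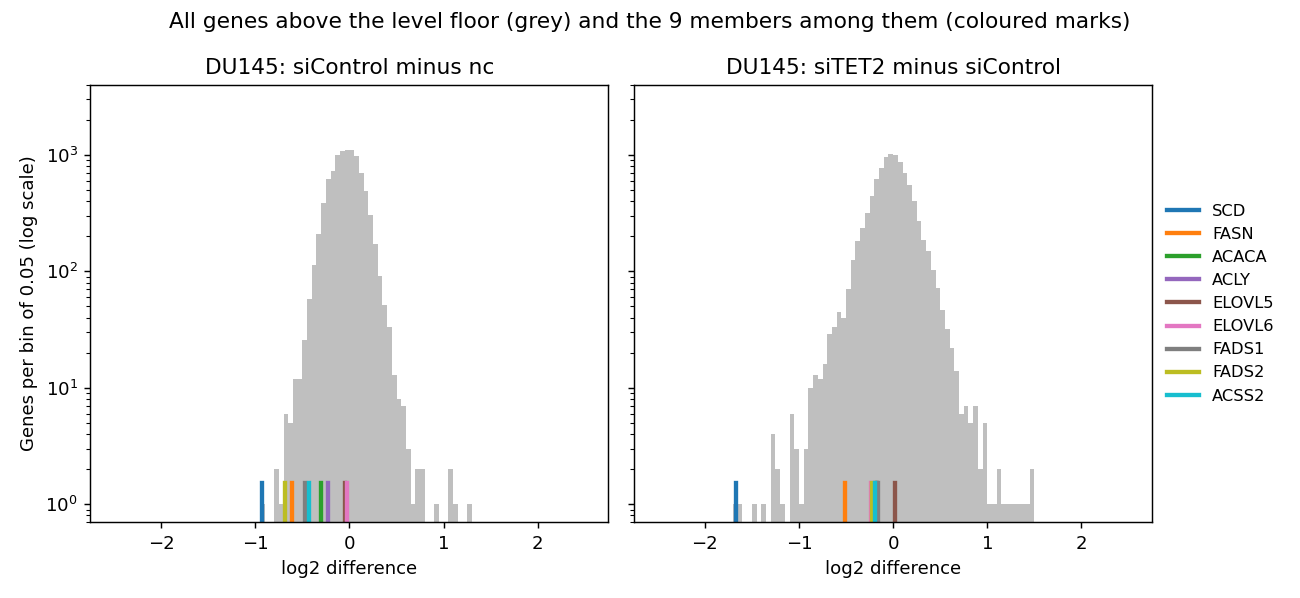
Number of genes (y axis, log scale) by log2 difference (x axis, bins of 0.05) in DU145, for siTET2 minus siControl and siControl minus nc, over all genes above the level floor; coloured marks show the 9 members. SCD is at the low end of both (-1.67 and -0.93), and the other marks of siControl minus nc lie between -0.68 and -0.03.

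The comparison of miR-29b with nc asks what the microRNA changed. In LNCaP the members had a median of -0.04, with 6 of 9 below 0 (44.9% of genes) and values from -0.15 for FASN to 0.26 for FADS1. In DU145 the median was -0.15 where that of all genes was -0.04, and 9 of 9 were below 0 (65.1%). SCD (-0.32), ACSS2 (-0.32) and FADS2 (-0.24) were lowest, and 0 of 9 were at least 1.5-fold lower, as were 0.244% of genes in LNCaP and 0.0532% in DU145. The sign of the DU145 values depends on the control: against siControl the median was 0.25, SCD was 0.61 and FASN 0.46 higher, and 1 of 9 was below 0 (52.6%).

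What the lines had in common was tested with limma on all 8 arrays, over 9209 genes. The terms were line and construct, with 3 residual degrees of freedom. With 1 array per line and construct, the error rests on the departure of the lines from a shared construct effect. Unequal responses of the lines thus enlarge it. Of 9 members tested, 0 passed at an adjusted p of 0.05 for siTET2 minus siControl (0.38% of genes passed), with 2 at an unadjusted p below 0.05, as were 1266 of 9209 genes. These were SCD, at -1.33 (SE 0.350, limma adjusted p = 0.161, range over alternatives 0.0247 to 0.9999), and ELOVL6, at -0.30 (SE 0.101, limma adjusted p = 0.235, range 0.142 to 0.9999). Both upper ends, 0.9999, came from the fit without the line term, whose error holds the difference between the lines. With the line term, ELOVL6 had the smaller difference and the smaller error. FASN was at -0.30 (95% interval -0.77 to 0.17), FADS1 at -0.28 (-0.61 to 0.05), FADS2 at -0.24 (-0.66 to 0.18) and ACACA at -0.16 (-0.48 to 0.16). For ACLY the interval was -0.42 to 0.24, for ACSS2 -0.39 to 0.27 and for ELOVL5 -0.19 to 0.32. Without the LNCaP siTET2 array SCD passed (-1.99, limma adjusted p = 0.0247), a fit in which 1 array stands for siTET2. Without the DU145 siTET2 array SCD was at -0.66 (limma adjusted p = 0.418), and FASN was at 0.08, above 0. For miR-29b minus nc, 0 of 9 members and 0 of 9209 genes (0.0%) passed with limma, with 0 and 344 at an unadjusted p below 0.05. For siControl minus nc, limma passed 0 of 9 members and 0 of 9209 genes (0.0%), with 0 and 1212 unadjusted. A test of the difference between the lines' responses was not possible with 1 array each.

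The regulators of these genes were read from a fixed list. SREBF1 was 8.01 with nc, 7.84 with miR-29b, 7.32 with siControl and 7.27 with siTET2 in DU145, and 9.61, 9.31, 9.48 and 9.32 in LNCaP. INSIG1, which retains the SREBP complex in the endoplasmic reticulum and is itself an SREBP target, was 8.65, 8.39, 7.92 and 7.77 in DU145 and 9.39, 9.18, 9.58 and 9.51 in LNCaP. In DU145 both were lower on the siRNA arrays than on the miRNA arrays, with siControl minus nc at -0.69 and -0.73. For siTET2 minus siControl INSIG1 was at -0.15, and SREBF1 lay below the floor on both arrays and is not read. SREBF2, the regulator of cholesterol genes, had the same 2 values at -0.57 and 0.04, and SCAP, the escort of both SREBPs, at -0.29 and 0.11. The differences of SCD (-1.67) and FASN (-0.52) for siTET2 minus siControl stand beside these values, and whether the regulators had a part in them was not tested. PRKAA2, a catalytic subunit of AMP-activated kinase, was the 1 listed regulator at least 1.5-fold lower with siTET2 than with siControl in DU145 (-0.60), and it is named after its value was seen. MLXIPL, a carbohydrate-responsive lipogenic factor, lay below the floor in every contrast and is not read further, and MID1IP1, an activator of acetyl-CoA carboxylase, differed by -0.09 and 0.07. Of 23 measured genes of the list, 18 were tested and 0 passed in either direction with limma for any of the 3 construct contrasts. The medians over those above the floor were 0.01 in LNCaP and 0.04 in DU145 for siTET2 minus siControl, and -0.01 and -0.13 for siControl minus nc.

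**Figure D4:**
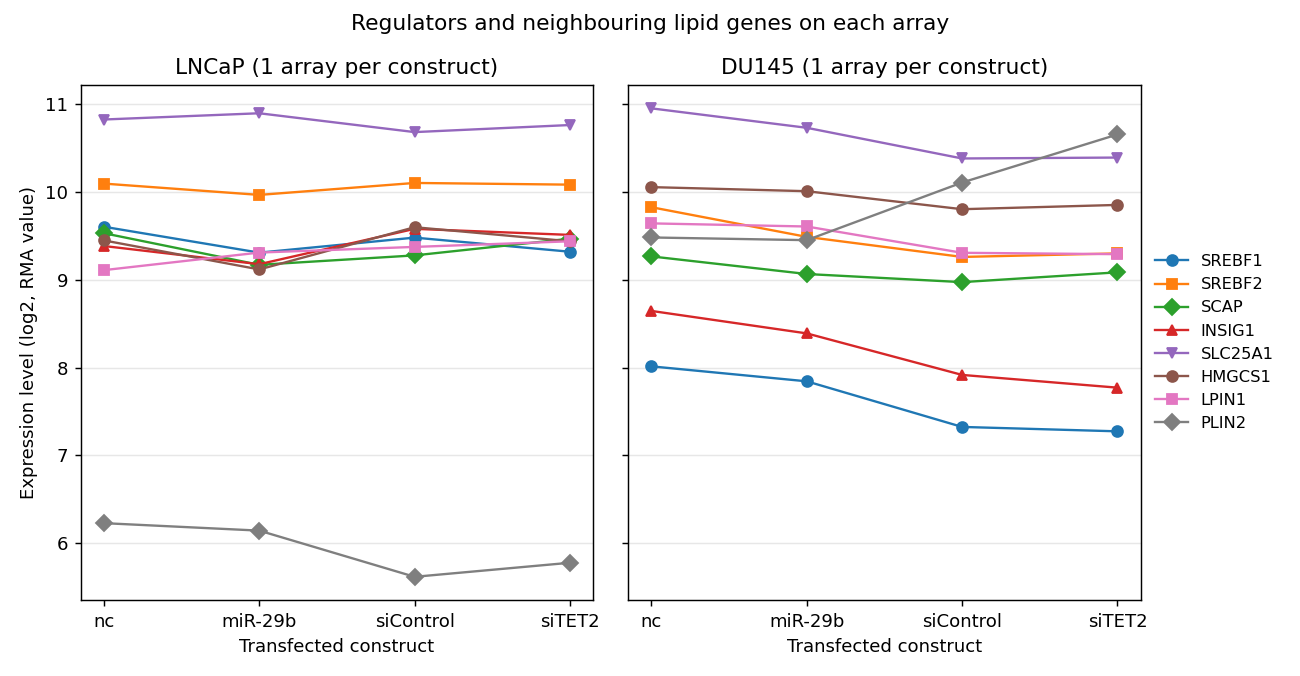
Level (log2, y axis) of SREBP regulators and neighbouring lipid genes on each array, by construct (x axis) in LNCaP and DU145; each point is 1 array and lines only join points of a gene. In DU145, SREBF1 goes from 8.01 with nc to 7.27 with siTET2 and INSIG1 from 8.65 to 7.77, whereas PLIN2 goes from 9.48 to 10.66.

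Cholesterol synthesis and uptake genes, which SREBP-2 drives, were also mostly lower with siControl than with nc in DU145. Over 15 genes above the floor the median of siControl minus nc was -0.38, with 14 below 0, against 57.7% of all genes and a median of -0.03. DHCR7, the last enzyme of the pathway, was at least 1.5-fold lower (-0.66) and is named after its value was seen, and HMGCS1, which makes HMG-CoA, was at -0.25. For siTET2 minus siControl the median was -0.08 over 14 genes in DU145 and -0.12 over 16 in LNCaP, where siControl minus nc was 0.16. Genes that supply carbon and NADPH had a median of -0.11 over 12 genes between the control arrays of DU145, with SLC25A1, the mitochondrial citrate carrier, at -0.57, and 0.05 for siTET2 minus siControl. ME1, a source of NADPH, was at -0.32 with siTET2 in LNCaP and 0.10 in DU145. In the common fits 0 of 15 cholesterol genes and 0 of 11 supply genes passed with limma for any of the 3 construct contrasts.

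Downstream, PLIN2, which coats lipid droplets, went the other way in DU145. It was 9.48 with nc, 9.45 with miR-29b, 10.11 with siControl and 10.66 with siTET2, so that siTET2 was 1.17 above nc and 0.55 above siControl. In LNCaP it lay between 5.62 and 6.23, below the floor. LPIN1, a phosphatidate phosphatase, was 9.64 with nc, 9.61 with miR-29b, 9.31 with siControl and 9.29 with siTET2 in DU145. MGLL, which splits monoglycerides, was the other gene of this list at least 2-fold apart, at -1.07 for siTET2 minus nc and -0.68 for siTET2 minus siControl in DU145. DGAT2, which makes triglyceride, was at -0.03 with siTET2 against siControl in DU145 and -0.16 in LNCaP, and GPAM, which starts glycerolipid synthesis, at 0.07 and 0.11. PLIN2 did not stand for its list of triglyceride and phospholipid synthesis and droplets. Over 17 genes above the floor in DU145, siTET2 minus siControl had a median of -0.09, with 11 below 0 against 52.7% of all genes. For siTET2 minus nc the median was -0.21, with 12 of 17 below 0 (57.5%). Of 16 tested genes of this list, 0 passed with limma in any of the 3 construct contrasts.

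Other desaturases and elongases served as close relatives. For siTET2 minus siControl in LNCaP, 9 of 11 above the floor were below 0, with a median of -0.08, against 46.9% of genes. That share was as high as the members' 7 of 9. In DU145, 7 of 13 were below 0, with a median of -0.04, against 52.7%. ELOVL7, which lengthens saturated and unsaturated long chains, was 11.47 with nc, 11.16 with miR-29b, 11.39 with siControl and 11.04 with siTET2 in LNCaP and 9.11, 9.14, 9.32 and 8.97 in DU145. Its siTET2 array was the lowest in both lines, and its common difference was -0.35 (SE 0.105, limma adjusted p = 0.190). SCD5, the other stearoyl-CoA desaturase, differed by 0.13 and -0.08 with siTET2 in LNCaP and DU145, where SCD differed by -0.98 and -1.67. FADS3, a neighbour of FADS1 and FADS2, differed by 0.01 and -0.04 with siTET2, but by -0.40 between the control arrays of DU145. ELOVL1, which lengthens very long chains, differed by -0.09 and 0.07 with siTET2. Of 11 tested, 0 passed with limma in any of the 3.

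Levels of LNCaP and DU145 were compared after aligning the array medians, with the 4 arrays of a line as n, which are 4 transfections of 1 line. FASN, ACACA and FADS2 were higher in LNCaP, and FADS1 and ELOVL6 were higher in DU145. FASN was 10.78 ± 0.08 in LNCaP and 9.25 ± 0.49 in DU145 (mean ± SD, n = 4 each), a difference of 1.54 (SE 0.144, limma adjusted p = 6.6e-06). ACACA was 11.01 ± 0.12 and 9.48 ± 0.20 (1.53, SE 0.101, limma adjusted p = 5.86e-07), and FADS2 was 11.98 ± 0.13 and 10.90 ± 0.39 (1.08, SE 0.131, limma adjusted p = 4.07e-05). FADS1 was 10.84 ± 0.21 and 11.99 ± 0.26 (-1.15, SE 0.105, limma adjusted p = 5.62e-06), so that the 2 neighbouring desaturases differed between the lines in opposite directions. ELOVL6 was 9.42 ± 0.20 and 10.12 ± 0.11 (-0.70), and ELOVL5 was 12.80 ± 0.21 and 12.43 ± 0.03 (0.37). In all, 7 of 9 members passed with limma, 5 higher in LNCaP (36.9% of genes) and 2 higher in DU145 (41.9%), and 6 of 9 had 4 arrays against 4 with no overlap (69.3%). As 78.8% of 9209 genes passed, that share is near the background. ACSS2 (0.28, limma adjusted p = 0.0304) no longer passed without LNCaP siControl or DU145 siControl (0.24, adjusted p = 0.117 for both), nor without LNCaP siTET2 or DU145 siTET2 (0.17, adjusted p = 0.131 for both; range over 14 alternatives 8.1e-04 to 0.131). SCD (-0.36, 95% interval -0.90 to 0.18) and ACLY (-0.17, -0.40 to 0.06) did not pass with all arrays. Without LNCaP siTET2, and equally without DU145 siTET2, SCD passed at -0.68 (limma adjusted p = 0.00775) and ACLY at -0.27 (adjusted p = 0.0365). Over 15 alternatives the adjusted p ran from 0.00775 to 0.795 for SCD and from 0.0365 to 0.580 for ACLY, whose sign turned with values as deposited (0.11). SREBF1 was higher in LNCaP by 1.53 (SE 0.118, limma adjusted p = 1.72e-06).

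**Figure D5:**
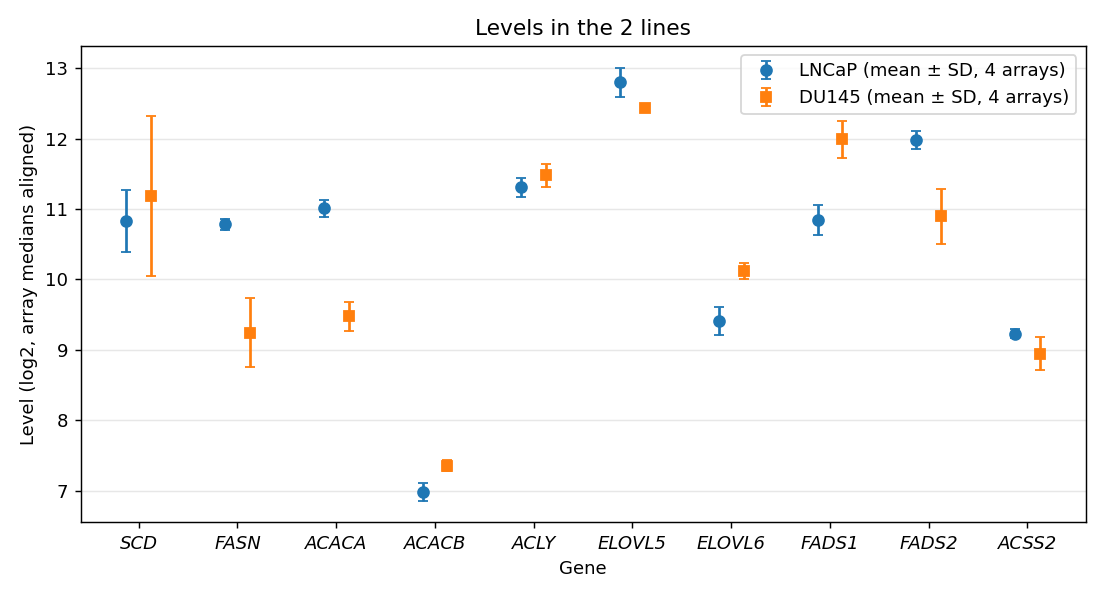
Level of each gene (log2 after aligning array medians, y axis) in LNCaP and DU145; points are means over the 4 arrays of a line and bars are the SD. FASN and ACACA lie 1.54 and 1.53 higher in LNCaP, FADS1 lies 1.15 lower there (-1.15), and the bars of SCD overlap.

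The genes most like SCD over the 8 arrays, once each line's mean was removed, were SNRNP40 (Pearson r = 0.99), H4C13, TALDO1, DNM1 and APEH, among 9208 genes. Those most like FASN were GUSBP11 (Pearson r = 0.99), DRG2, VAMP1, ARFGEF2 and QTRT1. These r values describe 8 arrays that share controls, and within a line SCD ranged over 2.60 in DU145 and 0.98 in LNCaP. FASN ranged over 1.13 in DU145 and 0.19 in LNCaP, so that its r values rest mostly on the DU145 arrays. H4C13 (4.57 to 4.78) and DNM1 (7.10 to 7.24) lay below the array medians in LNCaP. Both met the filter on mean level through their DU145 values (9.80 to 10.68 and 9.50 to 9.94). Among the members, FASN stood at rank 98 by likeness to SCD (0.94), FADS2 at rank 223 (0.91) and ACACA at rank 382 (0.88), and ELOVL5 was at -0.21.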

How the data were processed

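Per the submitters' processing notes, the authors made the values with Affymetrix Expression Console and RMA, and deposited 1 table of log2 values for 33297 probe sets and 8 arrays. RMA corrects background, normalizes quantiles and summarises probes. Array medians differ between the lines, so the arrays do not share 1 distribution, and the log base rests on the range of the values. Their number, 1 array per line and construct, limits the precision.

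Symbols came from the platform annotation, with Entrez identifiers matched to RefSeq. Of 19460 probe sets with 1 symbol, 19429 matched and 0 symbols changed. The 1754 with several symbols and 12083 not listed were left out. For 769 genes with several probe sets, the one with the highest mean stood for the gene. All 10 members had 1.

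Limma 3.58.1 (R 4.3.3) was fitted to the genes at or above the median of gene means, with Benjamini-Hochberg adjustment over all. It was also run on simulated data with the same shift in both lines, so that unequal responses of the lines were not checked. No source used here says that the arrays come from independent experiments, so p-values measure only the spread between these arrays. With 1 array per line and construct, that spread is the departure of the lines from a shared construct effect. Line levels were compared after aligning array medians. Counts used 1.5-fold and 2-fold differences above the level floor. Alternatives changed filter, scaling, control, terms and arrays. Named genes are the members, TET2, a fixed set of list genes, any list gene at least 2-fold apart within a line above the floor, and the 5 genes most like SCD and FASN. A name outside this set is marked where it stands. The members and lists were chosen with earlier results of these data known. Some of the fixed genes are not reported here. Protein sequences were not used here.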

Additional observations from a re-analysis of the deposited data

Results flagged for a closer look

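ELOVL6 in DU145 was 9.79 with siTET2, and this array stood apart as the lowest of the 4. The others were 10.05, 10.04 and 10.02, so that its gap to the next took up most of the whole range. Of 20 sets of 4 arrays looked at, 1 stood apart in this way, and chance gives about 1 in 20.

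The difference between control arrays had opposite signs in the 2 lines. The members' median of siControl minus nc was 0.16 in LNCaP and -0.43 in DU145. With 1 pair of arrays in each line the difference between the lines was not tested.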

How the results depend on the processing

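For the 9 members above the floor, the choice of control array moved the medians of DU145. There, the median of siTET2 was -0.20 against siControl, -0.62 against nc and -0.40 against the mean of both. That of miR-29b was -0.15 against nc, 0.25 against siControl and 0.0617 against the mean of both. With another scaling, probe set rule or floor, the medians of all 6 pairs moved by less than 0.226 in LNCaP and 0.161 in DU145. These limits are the spread of single genes between the control arrays of the line. The LNCaP medians given above (-0.15, -0.04 and 0.16) were within the limit, as was that of miR-29b minus nc in DU145 (-0.15). For these the limit does not show that the sign held. For siTET2 minus siControl common to both lines, 0 members passed under every alternative with all arrays. Leaving out 1 array at a time gave 0 to 1, the 1 being SCD without LNCaP siTET2. For miR-29b minus nc and siControl minus nc, 0 passed under all alternatives. For LNCaP minus DU145, 7 passed, and 6 to 8 when 1 array was left out. Under values as deposited, SCD was at -0.07 and ACLY at 0.11, in place of -0.36 and -0.17. The labels give no replicate numbers, and with 1 array per line and construct only the cell line could be paired. The cell line was the block in the common fits, and without it 0 members passed for any construct. The error of the fit without it holds the difference between the lines, so that fit cannot judge the calls. The table gives no background signal, so what lay near it could not be judged.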

Other observations

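Genes of fatty acid oxidation, the pathway that breaks these chains down, had no member past the test for any construct. Over 18 genes above the floor, siTET2 minus siControl had a median of 0.06 in LNCaP, with 5 of 18 below 0 against 46.9% of all genes. In DU145 the median was -0.15, with 13 of 18 below 0 against 52.7% of all genes. CPT1A, which admits long chains to mitochondria, was 10.94 with nc, 10.78 with miR-29b, 10.76 with siControl and 10.71 with siTET2 in LNCaP. In DU145 it was 9.98, 9.95, 10.23 and 9.89, so that it was highest with siControl. Of 19 tested genes, 0 passed with limma for any of the 3 construct contrasts, and 1 had an unadjusted p below 0.05 for siTET2 minus siControl. Of 14 measured acyl-CoA synthetases and binding proteins, 5 were tested and limma called 0 of them for any of the 3 construct contrasts; 2 had an unadjusted p under 0.05 for siTET2 minus siControl. SLC27A2, an acyl-CoA synthetase named after its value was seen, was at -0.63 for siTET2 minus siControl in LNCaP.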
